A study of Sus scrofa with 8 samples.

Results

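The genes described here are the immediate early genes FOS, FOSB, JUN, JUNB, EGR1, NR4A1 and NR4A2, together with RGS2, IER3 and ATF3, in pig pancreatic ductal organoids (PPDO) kept with or without prostaglandin E2 and the other growth factors of the organoid medium. They were chosen by name, and the rows that carry a name were summed per gene. Of the 10 genes, 9 had rows among the 30282 genes of the table, and all 9 had enough counts to be tested. JUN has no row under its symbol and was not analysed here.

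PPDO are ductal structures picked from dissected pig pancreas and grown in a basement membrane extract. RNA came from 4 lines, namely Em (embryonic), LPN (late postnatal), EPN1 and EPN2 (both early postnatal), so that only the early postnatal stage has a second line. In the study, early postnatal pigs range from birth to just after weaning. Late postnatal pigs are past weaning and not yet at reproductive maturity. Complete medium (the Control libraries) held prostaglandin E2, WNT3a, R-spondin1, noggin, FGF10, EGF and gastrin. For maintaining PPDO, the methods of the study replaced WNT3a, R-spondin1 and noggin by a conditioned medium supplement. Whether the Control libraries had this supplement is not stated. Differentiation medium (titled Treated) held none of these, and both media shared N2, B27, the TGF-beta receptor inhibitor A83-01, the ROCK inhibitor Y-27632, nicotinamide and N-acetylcysteine. Each line was cultured for a week in each medium, which gave 8 bulk poly(A) libraries with 1 library per line and medium. The treatment field of the sample records names the induction medium for all libraries, so the media were read from the titles and the lines from the column names. All 7 components were withdrawn together. The effect of prostaglandin E2 cannot be told apart from that of the others, or from that of the conditioned medium supplement if it was used.

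Immediate early genes are switched on within minutes of a stimulus, without new protein synthesis, by transcription factors that are already in the cell. Growth factors reach them through the MAP kinases and SRF with its ternary complex partners. Prostaglandin E2 reaches them through the receptors EP2 and EP4, which raise cAMP, so that protein kinase A phosphorylates CREB. Most of their products are transcription factors that act on a second wave of genes, and their transcripts are short-lived. The same genes also respond to handling, wounding and dissociation of tissue.

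FOS was lower in differentiation medium in every line, and it was the only gene of the group that passed the threshold in the edgeR fit of the media without the line. NR4A1, RGS2 and IER3 were also lower in all 4 lines, and NR4A1 and RGS2 passed in the edgeR fit that entered the line and in DESeq2 with or without it. NR4A2 was higher in all 4 lines and passed in DESeq2 with the line, but in neither edgeR fit. JUNB, ATF3, EGR1 and FOSB differed in direction between the lines. The levels below are in CPM, the count of a gene relative to the total of its library after scaling by the TMM factors. They were not divided by transcript length and are compared between libraries, not between genes. In bulk RNA, fewer cells that express a gene and less RNA per cell cannot be told apart.

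**Figure D1:**
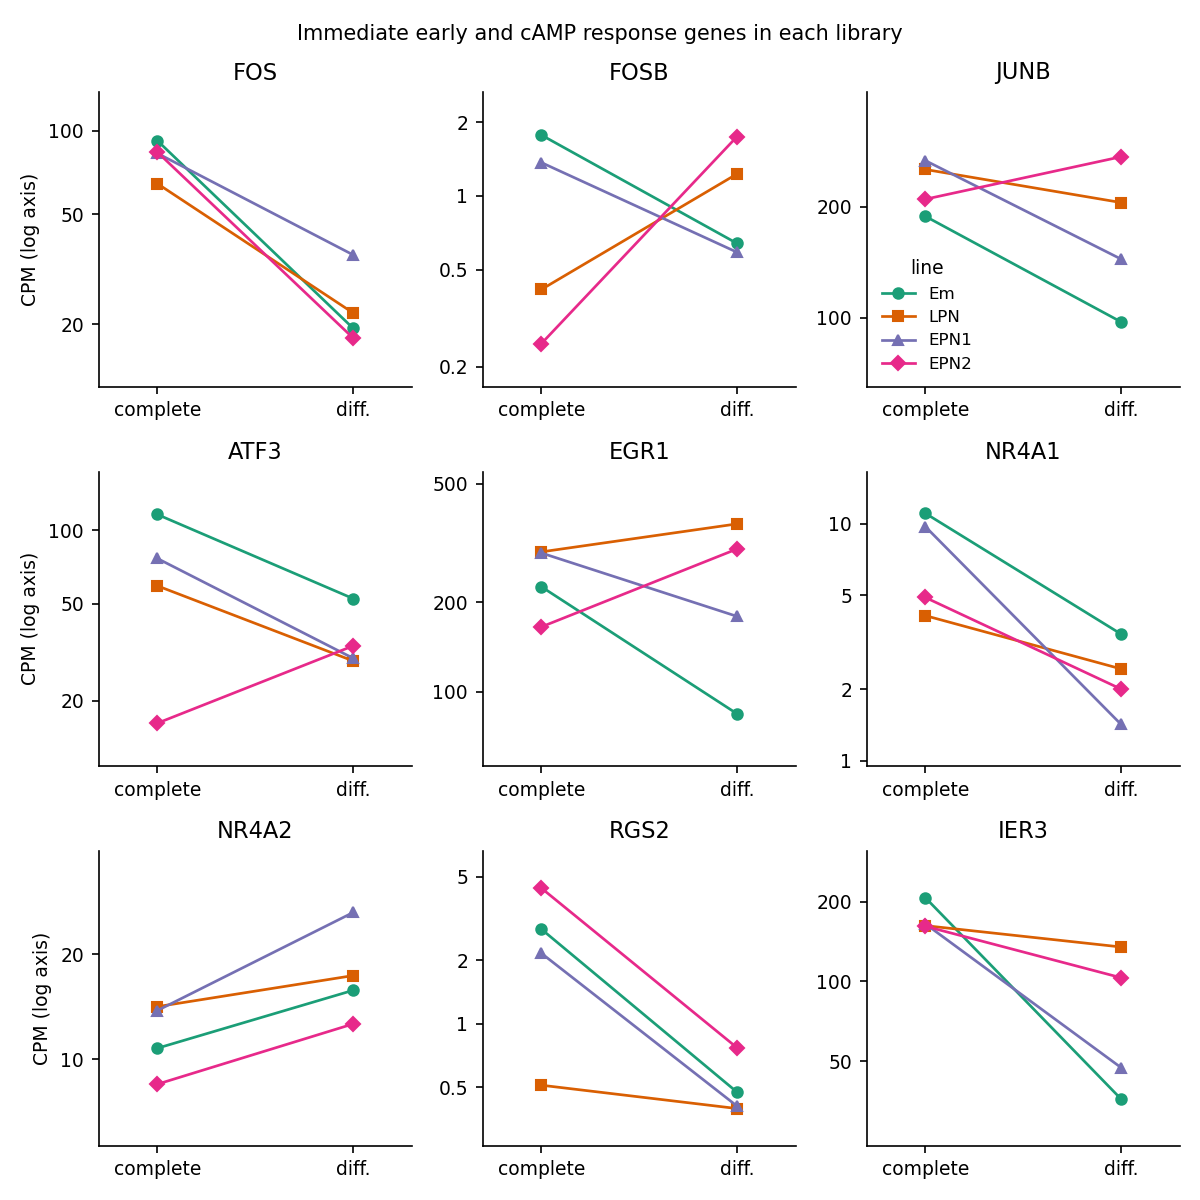
CPM of the 9 genes on log axes in complete and in differentiation (diff.) medium, where each line of a panel joins the 2 libraries of 1 organoid line. FOS, NR4A1, RGS2 and IER3 are lower in differentiation medium in all 4 lines, RGS2 in LPN only at 21 and 19 counts. NR4A2 is higher in all 4, and JUNB, ATF3, EGR1 and FOSB differ in direction between lines.

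FOS (ENSSSCG00000002383, chr7:98449508-98451971 in the RefSeq annotation of Sscrofa11.1) encodes the subunit that pairs with JUN proteins to form AP-1. In complete medium its level was 92.2 CPM in Em, 64.5 in LPN, 83.0 in EPN1 and 83.8 in EPN2. In differentiation medium it was 19.3 CPM in Em, 22.0 in LPN, 35.6 in EPN1 and 17.8 in EPN2. The lowest library in complete medium lay above the highest in differentiation medium, and the lines resembled each other most in complete medium. The mean fell from 80.9 ± 11.7 to 23.7 ± 8.14 CPM (SD, n = 4), which is 3.42-fold lower, with a log2 fold change of -1.77 ± 0.24 (SE) and an adjusted p of 0.0128 by the edgeR quasi-likelihood test. Entering the line in the fit gave a log2 fold change of -1.82 and an adjusted p of 0.0126. The adjusted p stayed under 0.05 without any single library, but in the fit with the line it was 0.0642 without LPN and 0.0596 without EPN1. The log2 fold change of FOS in these 2 fits was -1.91 and -2.01, and of all genes tested only 22 and 8 passed.

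Of the 14475 genes tested, 6.97% passed the threshold in that fit, 4.1% lower and 2.87% higher in differentiation medium, and of the 9 genes described here 1 passed. With the line as a block, 19.9% of all genes passed, 10.4% lower and 9.48% higher, and 3 of the 9 passed, all lower. DESeq2 called 18.5% of the genes to which it gave an adjusted p and 3 of the 9, and with the line it called 33.8% and 5 of the 9, with IER3 and NR4A2 added to FOS, NR4A1 and RGS2. A difference of the same sign in all 4 lines was found for 48.1% of all genes and for 5 of the 9. Media that did not overlap over the 8 libraries were found for 18.8% of all genes and for 3 of the 9, which were FOS, NR4A1 and IER3. The median log2 fold change was -0.88 over the 9 genes and 0.01 over all genes tested.

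**Figure D2:**
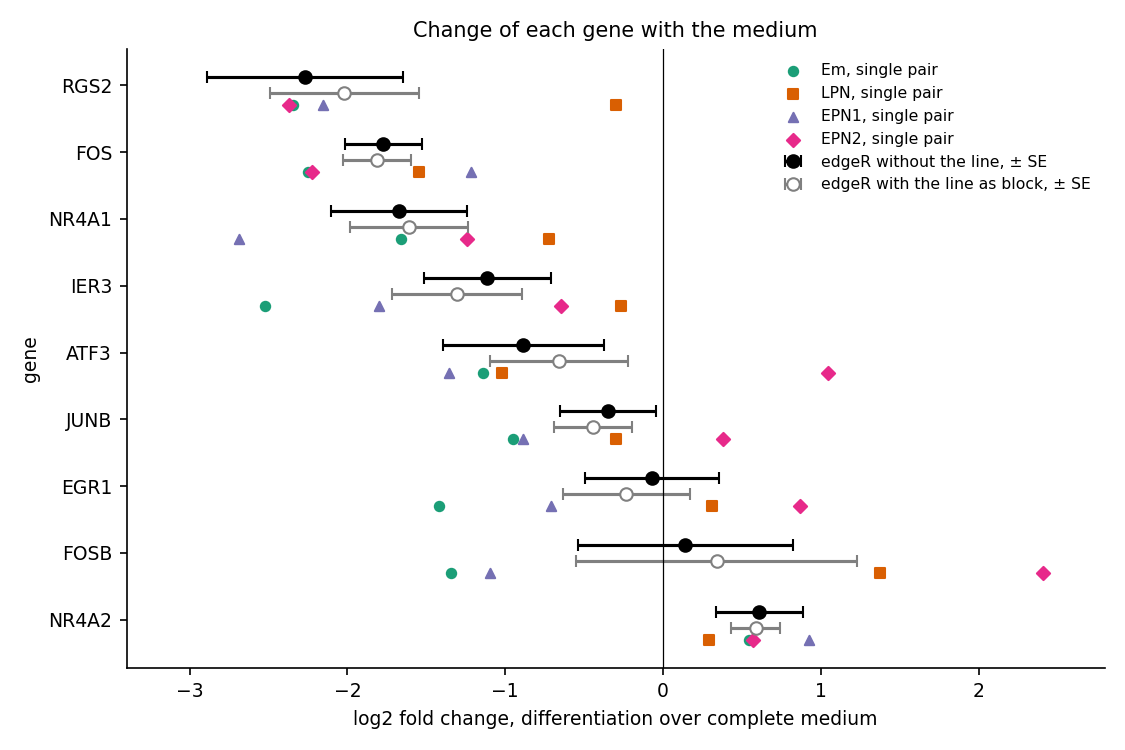
Log2 fold change of each gene, differentiation over complete medium. Filled circles are the edgeR estimate without the line and open circles that with the line as a block, both with SE, and the coloured symbols are the log2 difference of CPM + 0.1 within each line. The FOS symbols lie between -2.25 and -1.22, whereas those of FOSB lie between -1.34 and 2.41.

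The other AP-1 genes did not follow FOS in every line. JUNB (ENSSSCG00000013735, chr2:66214086-66219435), a JUN family partner of FOS, stood at 189 CPM in Em, 253 in LPN, 267 in EPN1 and 210 in EPN2 in complete medium. In differentiation medium it stood at 97.4 CPM in Em, 206 in LPN, 144 in EPN1 and 274 in EPN2. JUNB was thus lower in 3 lines and higher in EPN2, and the media overlapped. Its log2 fold change was -0.35 ± 0.30 with an adjusted p of 0.488, or 0.240 with the line in the fit. Without EPN2, and with the line in the fit, its log2 fold change was -0.71 with an adjusted p of 0.0468. Without 1 of the other lines it was -0.49 to -0.24 with an adjusted p of 0.384 to 0.545. EPN2 was the line that went the other way, so the stronger fall without it follows from that choice and is no separate support. These fits also differed over all genes, as 2989 passed without EPN2, 1730 without Em, 22 without LPN and 8 without EPN1.

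ATF3 (ENSSSCG00000015595, chr9:130772259-130829678) encodes a stress-induced factor of the ATF/CREB family that can pair with JUN proteins. It showed the same division of the lines as JUNB. Its level in complete and in differentiation medium was 116 and 52.5 CPM in Em, 59.2 and 29.2 in LPN, and 76.7 and 29.9 in EPN1. In EPN2 it was 16.2 CPM in complete and 33.6 in differentiation medium. EPN2 had the lowest level of the 4 lines in complete medium, whereas in differentiation medium it was close to LPN and EPN1. The log2 fold change was -0.88 ± 0.51 with an adjusted p of 0.299, and in the fit with the line it was -0.66 ± 0.44 with an adjusted p of 0.308. Leaving EPN2 out of the fit with the line gave -1.17 ± 0.12 with an adjusted p of 0.0116. Leaving out 1 of the other lines gave -0.52 to -0.40 with an adjusted p of 0.574 to 0.641. As for JUNB, EPN2 was the only line with a higher level, so the result without it is no separate support for a fall.

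FOSB (ENSSSCG00000031616, chr6:51836780-51844531), the closest relative of FOS in the group, was measured at low depth, with 11 to 82 counts per library. It went from 82 to 31 counts in Em and from 57 to 26 in EPN1. It was higher in the other lines, with 17 and 59 counts in LPN and 11 and 75 in EPN2. On the CPM scale the levels went from 1.78 to 0.640 in Em, from 1.37 to 0.588 in EPN1, from 0.414 to 1.23 in LPN and from 0.249 to 1.75 in EPN2. The lines with the higher FOSB in complete medium had the lower FOSB in differentiation medium. Over all lines the log2 fold change was 0.14 ± 0.68 with an adjusted p of 0.915, or 0.34 with an adjusted p of 0.803 with the line in the fit, and its sign changed without the LPN library in complete medium or either library of EPN2.

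EGR1 (ENSSSCG00000014336, chr2:140440829-140445302), the zinc finger factor of the serum response, divided the lines in the same way as FOSB. In Em it was 226 CPM in complete and 84.4 in differentiation medium, and in EPN1 it was 293 and 179. In LPN it was 295 and 367 CPM, and in EPN2 165 and 302. Em and EPN1 were therefore lower, by log2 differences of -1.42 and -0.71, and LPN and EPN2 higher, by 0.31 and 0.87. The spread between lines widened from 1.79-fold in complete to 4.35-fold in differentiation medium. The log2 fold change over all lines was -0.07 ± 0.43 with an adjusted p of 0.935, or -0.23 with an adjusted p of 0.696 with the line in the fit, and its sign changed without LPN in complete medium, Em in differentiation medium or either library of EPN1.

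The 2 orphan nuclear receptors of the group differed in direction in every line, NR4A1 lower and NR4A2 higher. Both act without a known ligand and are regulated mainly through how much is made, and cAMP is a classical inducer of both. NR4A1 (ENSSSCG00000031321, chr5:17403088-17407918, also known as NUR77) was 11.0 CPM in Em, 4.09 in LPN, 9.71 in EPN1 and 4.88 in EPN2 in complete medium. In differentiation medium it was 3.42 CPM in Em, 2.44 in LPN, 1.43 in EPN1 and 2.01 in EPN2. All libraries in differentiation medium lay under all those in complete medium. NR4A1 was 3.19-fold lower, with a log2 fold change of -1.68 ± 0.43 and an adjusted p of 0.0564, or 0.0387 with the line in the fit. When any 1 line was left out of that blocked fit, the adjusted p ranged from 0.0554 to 0.101.

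NR4A2 (ENSSSCG00000015871, chr15:63487051-63506249, also known as NURR1) was 10.7 CPM in Em, 14.1 in LPN, 13.8 in EPN1 and 8.48 in EPN2 in complete medium. In differentiation medium it was 15.7 CPM in Em, 17.3 in LPN, 26.3 in EPN1 and 12.6 in EPN2. NR4A2 was higher within each line, by log2 differences of 0.29 to 0.93, while the media overlapped when the lines were disregarded. Its log2 fold change was 0.61 ± 0.27 with an adjusted p of 0.193, or 0.0511 with the line in the fit. Rows that extend the gene model downstream held 6.41% of its counts, and without them the log2 fold change was 0.58.

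RGS2 and IER3 are not transcription factors. RGS2 (ENSSSCG00000037241, chr10:936836-940083) is induced by cAMP and speeds the switching off of Gq proteins. Its counts went from 130 to 23 in Em, from 90 to 18 in EPN1 and from 195 to 33 in EPN2, and from 21 to 19 in LPN. LPN was low in both media, at 0.512 and 0.397 CPM, and the levels in differentiation medium of the other lines were 0.474, 0.407 and 0.771. The log2 fold change was -2.27 ± 0.62 with an adjusted p of 0.0669, or -2.02 with an adjusted p of 0.0399 with the line in the fit. In the fit without the line, leaving out the LPN library in complete medium gave an adjusted p of 0.0494. Leaving out any other single library gave 0.0781 to 0.164. LPN had the smallest fall and the lowest level in complete medium. The lower adjusted p without that library follows from this and is no separate support. Leaving any 1 line out of the blocked fit gave an adjusted p of 0.0642 to 0.150.

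IER3 (ENSSSCG00000027607, chr7:23265560-23266905) encodes a short-lived protein linked to cell survival. In complete medium it was 207 CPM in Em, and 161 to 165 in the other lines. In differentiation medium it was 36.0 CPM in Em, 135 in LPN, 47.3 in EPN1 and 103 in EPN2. The media did not overlap, but the size of the difference varied between lines, from a log2 difference of -0.27 in LPN to -2.52 in Em. The mean went from 174 ± 22.1 to 80.3 ± 46.7 CPM (SD, n = 4). The log2 fold change was -1.11 ± 0.40 with an adjusted p of 0.126, or 0.0754 with the line in the fit.

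Read by line, 8 of the 9 genes were lower in Em and 8 in EPN1, with median log2 differences of -1.42 and -1.22. In LPN 6 of the 9 were lower, with a median of -0.30, and in EPN2 4 of the 9, with a median of 0.38. Over all genes the medians within a line lay between -0.01 and 0.01. The mean of the 9 standardised levels went from 0.71 to -0.84 in Em and from 0.74 to -0.49 in EPN1, but from 0.16 to -0.05 in LPN and from -0.18 to -0.06 in EPN2. The summed level of 9 ductal epithelial markers rose from 10068 to 15005 CPM in Em and from 7782 to 10546 in EPN1. It fell from 7706 to 5995 CPM in LPN and from 7095 to 3994 in EPN2. FOSB and EGR1 divided the lines into the same pairs, but the 9 genes together did not, as their mean level also fell in LPN. Without KRT8, the most abundant marker, the sums were 4648 to 6603 CPM in complete and 3569 to 10099 in differentiation medium. The part of the ductal markers in the line differences of FOSB and EGR1 was not tested, and with 1 library per line and medium the difference between lines has no replicate.

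Because the genes differed in direction, 5 ratios between them within a library were examined. They were chosen after the values were seen, share libraries and in 4 cases share FOS, and are given as a description with no test. The ratio of NR4A2 to NR4A1 was higher in differentiation medium in 4 of 4 lines, by a mean log2 difference of 2.16, and the media did not overlap. Its direction was fixed, because NR4A1 was lower and NR4A2 higher in every line. How often ratios of other gene pairs behave in this way was not examined. The ratio of JUNB to FOS was also higher in 4 of 4 lines without overlap, by 1.37. The ratios of EGR1 and FOSB to FOS were higher in 4 of 4 lines, by 1.58 and 2.15, with overlapping media. The ratio of ATF3 to FOS was higher in 3 of 4 lines, by 1.19, with overlapping media.

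**Figure D3:**
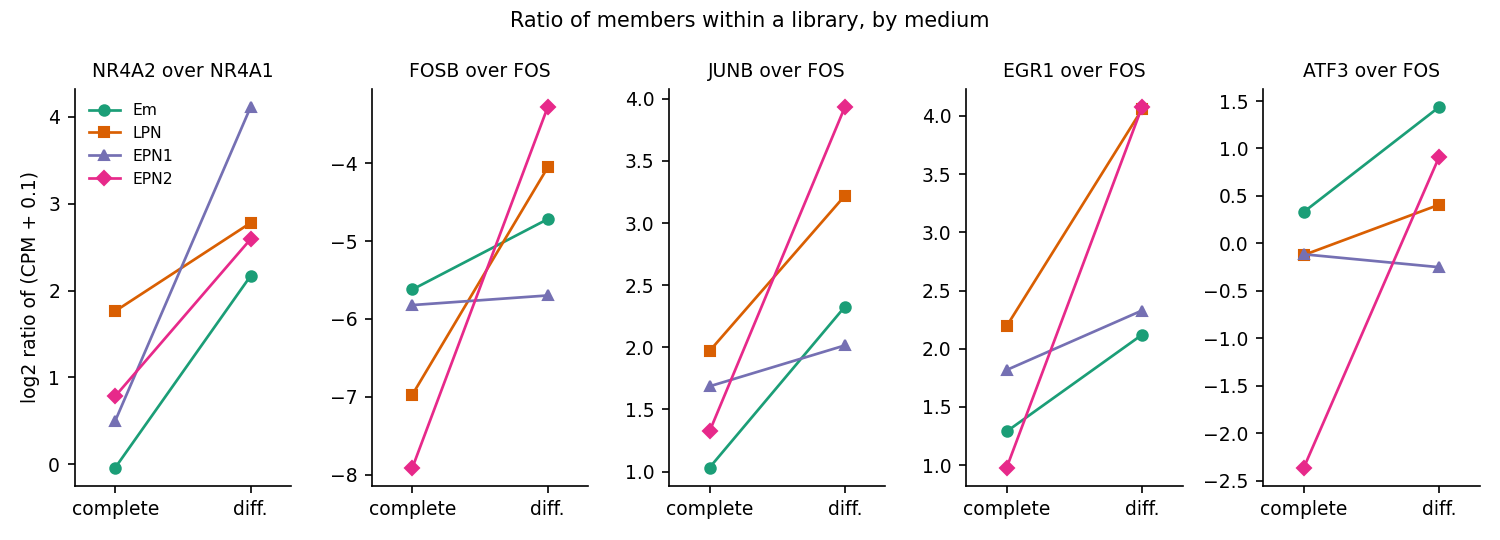
Log2 ratio of the CPM (+ 0.1) of 2 genes within each library, by medium, where each line joins the 2 libraries of 1 organoid line. NR4A2 over NR4A1 and JUNB over FOS are higher in differentiation medium in all 4 lines with no overlap between media, and ATF3 over FOS is slightly lower in EPN1.

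Relatives and neighbours of these genes in the pathway were followed in 9 lists. In all, 118 listed genes were tested and 9 passed, or 7.63%, with 2 higher and 7 lower, beside the 6.97% of all genes given above. In the blocked fit 18 passed, 6 higher and 12 lower, or 15.3% beside 19.9%, and all 9 were among them. The median log2 fold change was -0.07. The count without the line fell to 1 without the LPN or the EPN1 library of either medium, to 2 without Em in complete medium and to 4 without Em in differentiation medium.

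**Figure D4:**
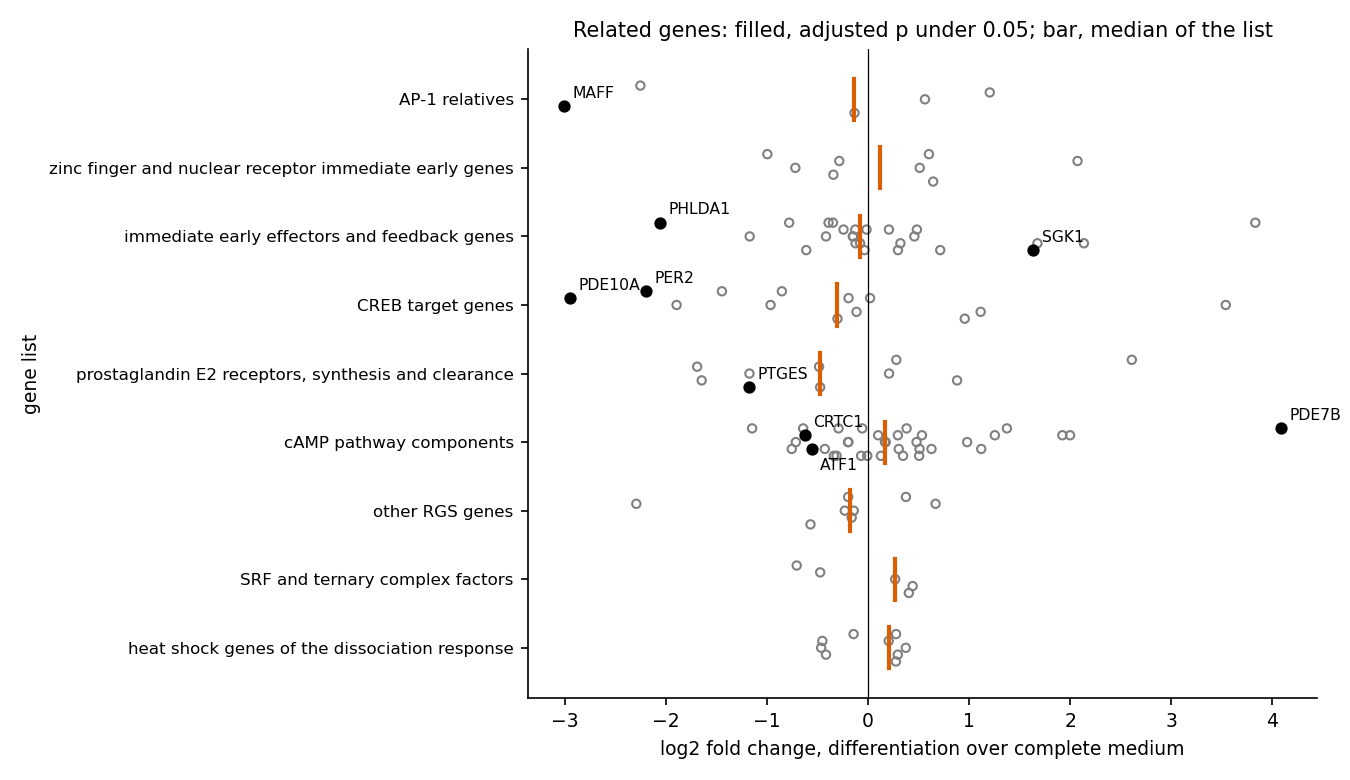
Log2 fold change of the 118 related genes in 9 lists, differentiation over complete medium. Filled circles with names are the 9 genes with an adjusted p under 0.05, open circles the others, and each bar is the median of a list. Every list has genes on both sides of 0, and PDE7B is the highest and MAFF the lowest.

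Among 5 tested AP-1 relatives, MAFF, a small MAF protein that lacks an activation domain, passed. It was 26.8 to 82.7 CPM in complete and 2.28 to 15.5 in differentiation medium, with a log2 fold change of -3.01 ± 0.70 and an adjusted p of 0.0431. FOSL1 and FOSL2, the FRA1 and FRA2 members of the FOS family, differed in direction. FOSL1 was 7.15 CPM in Em, 5.90 in LPN, 6.28 in EPN1 and 13.8 in EPN2, and in differentiation medium 1.16, 0.626, 1.27 and 3.90. FOSL2 was 156 CPM in Em, 208 in LPN, 155 in EPN1 and 214 in EPN2, and in differentiation medium 278, 425, 297 and 687. The media did not overlap for either gene. The adjusted p was 0.0632 for FOSL1 (log2 fold change -2.25 ± 0.61) and 0.0543 for FOSL2 (1.20 ± 0.30). Both passed with the line in the fit, at 0.0126 and 0.0173. JUND was not analysed here.

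None of the 8 other zinc finger and nuclear receptor immediate early genes passed in either edgeR fit, and 3 had an unadjusted p under 0.05. These were MYC (log2 fold change -0.72, adjusted p = 0.134), CSRNP1 (-0.997, adjusted p = 0.162) and EGR2 (2.07, adjusted p = 0.174). EGR3, named after its values were seen, went in the same direction as EGR1 in each line, with small differences in Em and LPN. It was 4.74 CPM in complete and 4.21 in differentiation medium in Em, and 19.1 and 10.1 in EPN1. In LPN it was 26.2 and 29.8 CPM, and in EPN2 15.4 and 49.2. EGR2 did not divide the lines this way, as it was higher in 3 lines, among them EPN1 (0.745 and 1.70 CPM). NR4A3, the third receptor of the NR4A family, did not reach 0.4 CPM in any library and was not tested.

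Of 25 tested effectors and feedback genes, PHLDA1 fell and SGK1 rose. PHLDA1, a target of ERK signalling, had 451 ± 42.4 CPM in complete and 108 ± 48.5 in differentiation medium (SD, n = 4), with a log2 fold change of -2.06 ± 0.32 and an adjusted p of 0.0167. SGK1, a kinase that regulates ion transport in epithelia, had 85.3 ± 25.4 and 265 ± 84.8 CPM and a log2 fold change of 1.64 ± 0.29 with an adjusted p of 0.0227. Each moved in the same direction in 4 of 4 lines without overlap. In the blocked fit CCN1 and HBEGF also fell (adjusted p = 0.0156 and 0.0225) and NFKBIZ rose (adjusted p = 0.0465).

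Of 13 tested CREB targets, PER2 and PDE10A fell. PER2, a repressor of the circadian clock, went from 10.4 ± 4.47 to 2.28 ± 0.43 CPM (log2 fold change -2.20 ± 0.36, adjusted p = 0.0189). PDE10A, a phosphodiesterase for cAMP and cGMP, never exceeded 19 counts (log2 fold change -2.95 ± 0.67, adjusted p = 0.0423). In differentiation medium it was 0.0413 CPM in Em, 0.0835 in LPN, 0.0453 in EPN1 and 0 in EPN2. The size of its fold change thus rests on very few counts. In the blocked fit AREG, an EGF receptor ligand, fell too (adjusted p = 0.0202). CREM, whose short product ICER represses CREB targets, was 6.45 ± 0.97 CPM in complete and 6.53 ± 0.64 in differentiation medium, and its log2 fold change was 0.02 ± 0.20 (adjusted p = 0.963). PER1 was 79.9 ± 32.0 and 64.8 ± 7.22 CPM, with a log2 fold change of -0.30 ± 0.26 (adjusted p = 0.477). SIK1 was not analysed here.

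The receptors for prostaglandin E2 differed in level from line to line. PTGER4, which encodes EP4, was 6.82 CPM in Em, 4.80 in LPN, 11.2 in EPN1 and 3.55 in EPN2 in complete medium. In differentiation medium it was 15.8 CPM in Em, 7.33 in LPN, 11.8 in EPN1 and 13.6 in EPN2. PTGER4 was thus higher in 4 of 4 lines, with overlapping media, a log2 fold change of 0.88 ± 0.40 and an adjusted p of 0.198. PTGER2, which encodes EP2, was 1.17 CPM in Em, 0.122 in LPN, 0.144 in EPN1 and 3.62 in EPN2 in complete medium, and 0.501 to 0.654 CPM in differentiation medium (adjusted p = 0.472). PTGER1 and PTGER3 had at most 7 and 6 counts in any library and were not tested.

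Of the 10 tested genes for prostaglandin E2, PTGES, the inducible synthase that makes it, fell from 176 ± 25.9 to 77.9 ± 21.0 CPM (log2 fold change -1.18 ± 0.21, adjusted p = 0.0229). With the line in the fit PTGES3, listed here by its name, fell by less (log2 fold change -0.48, adjusted p = 0.0491). In the same fit HPGD, the enzyme that inactivates prostaglandin E2, rose (adjusted p = 0.0124). HPGD went from 6.69 to 43.6 CPM in Em, from 0.171 to 1.59 in LPN, from 5.84 to 25.0 in EPN1 and from 0.859 to 12.7 in EPN2. Its level thus differed more between lines than between media, and without the line its adjusted p was 0.209.

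Of 35 tested components of the cAMP pathway, CRTC1 and ATF1 fell and PDE7B rose. CRTC1, a coactivator of CREB, went from 29.9 ± 2.38 to 19.3 ± 2.16 CPM (log2 fold change -0.63 ± 0.13, adjusted p = 0.0350). ATF1, the closest relative of CREB, went from 37.1 ± 5.63 to 25.1 ± 1.38 CPM (log2 fold change -0.56 ± 0.14, adjusted p = 0.0490). CREB1 itself went the other way, from 28.7 ± 4.65 to 40.8 ± 3.34 CPM, without overlap (log2 fold change 0.50 ± 0.14, adjusted p = 0.0742, or 0.0288 with the line in the fit). PDE7B, a cAMP phosphodiesterase, was at or under 3 counts in 3 of the 4 libraries in complete medium and 0.677 to 3.90 CPM in differentiation medium (adjusted p = 0.0459).

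None of 8 other RGS genes, 5 genes of SRF and its partners and 9 heat shock genes passed in either edgeR fit. At an unadjusted p under 0.05 these were 0, 2 and 2 genes. The smallest p-values among the RGS genes belonged to RGS3 (log2 fold change 0.37, adjusted p = 0.320), RGS13 (-2.29, 0.351) and RGS4 (0.67, 0.563). Among the SRF genes ELK4 was at -0.47 (adjusted p = 0.0970), SRF at 0.40 (0.146) and MRTFA at 0.27 (0.324). Among the heat shock genes, which are induced together with immediate early genes by dissociation, HSPD1 was at -0.45 (adjusted p = 0.128), HSPE1 at -0.46 (0.133) and HSP90AA1 at 0.37 (0.187).

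The 5 genes whose log2 CPM over the 8 libraries followed the mean standardised level of the group most closely were RPS15 (Pearson r = 0.979), PIGU (0.968), RAMMET (0.963), CCDC47 (0.961) and FGR (0.960). They were the highest of 14475 correlations over 8 libraries that share line and medium, and are given as a description. None of them belongs to the lists above.

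The libraries held 40553593 to 47910657 counts, so that a count of 0 allows up to 3 counts or 0.0626 to 0.0740 CPM, which covers counting error only. Of the ductal epithelial markers 9 had rows, all above 3 counts in at least 1 library, and none passed the threshold. The summed stromal markers were 22.4 to 73.0 CPM in complete and 2.36 to 50.8 in differentiation medium, most of it VIM. The immune list summed to 1171 to 1850 CPM in complete and 1040 to 1214 in differentiation medium, most of it CD79A. The other immune markers summed to 28.9 to 58.9 CPM in complete and 8.05 to 94.6 in differentiation medium. Among them CD3E was at or under 3 counts in every library. Whether the CD79A counts come from immune cells was not tested. The endothelial markers summed to 21.8 to 34.9 and 15.7 to 44.0 CPM, most of it KDR, and CDH5 was at or under 3 counts in every library. Of the acinar markers, PNLIP was at or under 3 counts in every library. No marker of any of the 5 lists passed, and their part in the values above was not tested.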

How the data were processed

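RNA of PPDO from 4 lines in 2 media went through poly(A) selection and sequencing. The authors used salmon within an nf-core workflow, with a pig genome annotated for the study, and the deposited values are estimated counts. The submitters' processing notes name Sscrofa11.1 and, for the series as a whole, GRCh38. The deposited table calls its counts raw, and the methods of the study used length scaled ones. The values do not tell them apart (78.6% of the values above 0 are whole). Rows with the suffixes -iso and -ext were summed per gene and rounded to whole numbers. Rows of 8 reporter genes (0.00142% of counts) were left out, no column was left unused, and 5612 of 30282 genes had no count.

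The genes described, the related lists and the tests were chosen with earlier results of these data known. One further row, whose name is an Ensembl identifier that a separate gene name table gives for JUN, carries another gene identifier and was not used. Gene positions come from RefSeq for Sscrofa11.1 and were matched by symbol. A symbol held by more than 1 gene identifier was left out.

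Counts were tested in R 4.3.3 with edgeR 4.0.16 (TMM factors 0.935 to 1.06, the default expression filter, quasi-likelihood test, medium as sole term) and Benjamini-Hochberg adjustment over 14475 genes, at a threshold of 0.05. DESeq2 1.42.0 and a fit with the line as replicate block were alternatives. The study itself used DESeq2 for differential expression, so the edgeR counts are not those of its own method. Same-line libraries share an organoid line and so pair the samples: after removal of the medium means libraries of one line correlated at 0.403 to 0.659 (4 pairs), and libraries of unlike lines at -0.485 to 0.250 (12 pairs). The blocked value is printed beside each gene of the group, and for the related genes where it changes the call. In the fit without the line, a p-value sets the difference between media against the spread between libraries of the same medium. In the blocked fit it sets that difference against how far it varies between lines. Differences within a line use log2(CPM + 0.1). The fitting code was tested on simulated data.

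Named are all genes of the group and, of each related list, the genes past the threshold (at most 6), or the 3 with the smallest p where none passed. PTGER1 to PTGER4, CREM, PER1, SIK1, NR4A3, FOSL1, FOSL2 and JUND, and the 5 genes most like the group, were added by the same rule. Genes that passed only with the line in the fit were named after their values were seen. Promoter motifs were not analysed here. One acinar marker and the sum of its list are not reported here. Figures were drawn with matplotlib 3.10.9.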

Additional observations from a re-analysis of the deposited data

Results flagged for a closer look

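Several genes moved in opposite directions in different lines under the same change of medium. With 1 library per line and medium the difference between lines was not tested. The log2 difference of FOSB, differentiation over complete medium, was -1.34 in Em and -1.09 in EPN1 but 1.37 in LPN and 2.41 in EPN2. That of EGR1 was -1.42 in Em and -0.71 in EPN1 but 0.31 in LPN and 0.87 in EPN2. JUNB was higher only in EPN2, by 0.38, and ATF3 only in EPN2, by 1.05.

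IER3 in complete medium stood at 207 CPM in Em, apart from the other lines, with a gap of 0.917 of the range of the group. This was 1 of 18 groups of 4 libraries examined, and chance alone marks about 1 group in 20.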

How the results depend on the processing

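Of 20 alternatives, the following moved a count by over 1.5 times, where the main counts were 1 of the 9 genes described, 9 related genes and 1009 genes in all. DESeq2 without the line gave 3, 18 and 3026. The replicate block gave 3, 18 and 2884 in edgeR and 5, 46 and 5597 in DESeq2. No filter on low counts gave 4 related genes and 506 in all. Without the -ext and -iso rows, which leaves 2652 genes to test and only FOSB, RGS2 and IER3 of the group, 0, 0 and 135 passed. Leaving out 1 library gave 1 to 2, 1 to 10 and 70 to 1199, and leaving out 1 line with the replicate block gave 0 to 3, 0 to 23 and 8 to 2989. The cause was not tested, beyond fewer genes or samples where the alternative itself removes them.

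EGR1 changed sign in 5 of 19 alternatives, with log2 fold changes of 0.03 without control LPN, 0.05 without control EPN1, 0.21 without differentiation Em, 0.04 without differentiation EPN1 and 0.19 without line Em in the blocked fit, with values down to -0.61 without 1 line. FOSB changed sign in 5 of 20, at -0.11 without control LPN, -0.17 without control EPN2, -0.21 without differentiation EPN2, and in the blocked fit -0.17 without line LPN and -0.45 without line EPN2, with values of up to 1.08 without 1 line. FOS lost its call in 2 of 19, with an adjusted p of at most 0.0642 and log2 fold changes of -1.91 and -2.01. The other genes kept their sign in every alternative that gave a value, and RGS2 gave none at a minimum of 50 counts in 4 libraries. Median-ratio size factors moved no call of the group. Low depth limits FOSB and RGS2.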
